A study of Homo sapiens with 46 samples.

Results

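The comparison described here set the response to loss of Lamin A/C against the response to loss of Lamin B1 in DLD-1, an epithelial line from a human colorectal adenocarcinoma. It used 15 of the 46 RNA-seq libraries of the series, chosen by their labels: all libraries at 0 and 96 h of auxin of the line with an auxin-inducible degron (AID) on endogenous Lamin A/C (LAC) and of the line with the same tag on endogenous Lamin B1 (LB1). Auxin was given at 1 mM from a stock in DMSO, and cells were taken at 0 or 96 h. LAC had 4 libraries at 0 h and 4 at 96 h, and LB1 had 3 at 0 h and 4 at 96 h. Each line also had 4 libraries at 16 h of auxin, which enter a separate comparison only. A response is the change of a gene's count level from 0 h to 96 h within a line, and the response difference is the response of LAC minus that of LB1, on the log2 scale. Untagged parental libraries did not enter. A change caused by auxin itself drops out of the difference where it is equally large in both lines, and other differences between the lines cannot be told apart from the identity of the tagged lamin. Each replicate was 1 well of a culture plate, so p-values measure the spread between wells, which may be technical. How many clones each line stands for, and whether cells at 0 h received DMSO, is not given in the sources used here, and lamin protein levels were not analysed here.

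Lamins are intermediate filament proteins that form a meshwork under the inner nuclear membrane. A-type lamins, made from LMNA by alternative splicing, are found both in this meshwork and in the nuclear interior. They scale with tissue stiffness and bind regulators of cell cycle and transcription. B-type lamins, from LMNB1 and LMNB2, keep a farnesyl anchor in the membrane and are expressed in nearly all cells. The degron tag recruits a ubiquitin ligase when auxin is present, so the tagged protein is degraded while its gene stays intact.

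The 15 libraries held from 1452968 to 29739484 counts assigned to genes, with a median of 13607641. Replicate 1 of LAC at 0 h (3318819 counts) and replicate 2 of LB1 at 0 h (1452968) were the 2 libraries with under 5000000. Levels are given as CPM, counts scaled to a total of 1000000. Where a gene has no count its level may still be as high as 3 counts, or 2.06 CPM in the shallowest library and 0.101 in the deepest. Markers of colorectal epithelium summed to between 5959 and 11350 CPM in every library, and 10 of 12 were above 1 CPM on average. Those of fibroblasts and mesenchyme summed to between 3.35 and 10.8 CPM, with TWIST1, COL1A2, LUM and DCN at 0 throughout. In that list ZEB1, COL1A1 and CDH2 were above 1 CPM on average. Blood and immune markers summed to at most 4.04 CPM, with HBB and MS4A1 at 0 and CD14 above 1 CPM on average. Endothelial markers summed to between 2.93 and 18.3 CPM, with KDR at 0 and VWF above 1 CPM on average. In bulk RNA, fewer cells of a kind and less RNA per cell cannot be told apart.

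Of 19743 genes tested, 68 (0.344%) had a response difference that passed an edgeR adjusted p of 0.05, and such genes are referred to as called. Of these, 47 (0.238%) were higher in the LAC response and 21 (0.106%) were lower, and 60 differed by at least 2-fold. The differences ran from 0.77 to 4.92 (log2) for the higher genes, with a median of 1.31, and from -3.40 to -0.93 for the lower genes, with a median of -1.82, while the median over all genes was -0.06. An unadjusted p under 0.05 was found for 2570 genes (13%). Within the lines, 2849 genes (14.4%) changed in LAC between 0 and 96 h, 1292 up and 1557 down, and 486 (2.46%) changed in LB1, 199 up and 287 down. The libraries at 0 and 96 h did not overlap for 3750 genes (19%) in LAC and 3946 (20%) in LB1. A lack of overlap, as given for single genes below, is therefore common.

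The higher genes came about in several ways. For 27 of the 47, the gene rose in LAC and its change in LB1 was not called. For 14, it fell in LB1 and its change in LAC was not called. A further 5 rose in LAC and fell in LB1, and 1, the secreted chaperone gene CLU, fell in both but less in LAC. Of the 21 lower genes, 8 fell in LAC with no called change in LB1, 5 rose in LB1 with none in LAC, 5 fell in LAC and rose in LB1, and 3 rose in both lines but less in LAC. These 3 were CYP1A1, FOS and TFF3.

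**Figure D1:**
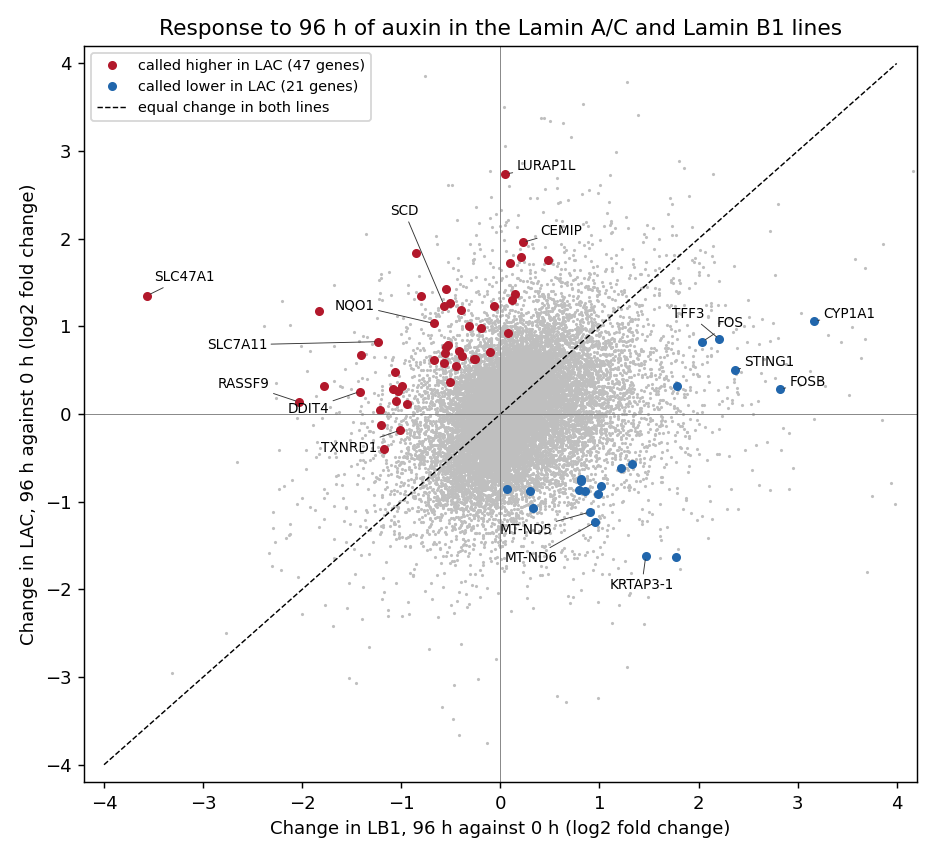
Log2 fold change from 0 to 96 h of auxin in LB1 (x axis) and in LAC (y axis) for the genes tested (grey), with the 47 genes called higher (red) and the 21 called lower (blue) in LAC. The dashed line marks equal change in both lines, and 11 genes lie outside the plotted range. Called genes sit away from the dashed line, with SLC7A11, NQO1 and SCD in the upper left quadrant, MT-ND5 and MT-ND6 in the lower right, and FOS, FOSB, CYP1A1 and TFF3 far to the right.

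The number of calls moved with single libraries, while every one of the 68 genes kept its sign in each alternative setting that could test it. Without replicate 3 of LB1 at 0 h 20 genes were called, and without replicate 1 of that group 32. Without replicate 3, 2 or 4 of LAC at 96 h 30, 42 and 38 were called, and 45 without replicate 3 of LAC at 0 h. Leaving out replicate 2, 3 or 4 of LB1 at 96 h gave 37, 44 and 44. Leaving out replicate 1 or 2 of LAC at 0 h raised the count to 340 and 482. In all, 18 genes were called in every alternative: LURAP1L, RASSF9, CX3CL1, SLC7A11, CADPS, SCD, CEMIP, NQO1, HAS2 and PSAT1 among the higher, and FOSB, CYP1A1, MT-ND6, MT-ND5, MT-ND2, MT-ATP6, MT-ND1 and MT-CO2 among the lower. Over 8570 genes with a mean of more than 4 on the log2 CPM scale, the response difference followed the GC content of the gene, with a Spearman correlation of -0.60 across genes (not independent of each other). The correlation was -0.66 for the LAC response and -0.17 for the LB1 response. Once each library's trend with GC and length had been taken out, it was -0.01 for the response difference, 360 genes were called, and 66 of the 68 remained.

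The tagged genes themselves were not among the calls. LMNA (ENSG00000160789.24, chromosome 1, 156082573 to 156140081, plus strand; GRCh38, as for all positions here) stood at 808, 260.2, 376 and 334 CPM in the 4 LAC libraries at 0 h and 334, 209.5, 245 and 306 at 96 h. In LB1 it stood at 608, 858 and 785 CPM at 0 h and 272, 294, 354 and 372 at 96 h. The LB1 libraries did not overlap between times, whereas the LAC libraries did, with replicate 1 at 0 h far above the others. LMNA fell in LB1 by 1.21 (log2, edgeR adjusted p = 0.0132), its change in LAC was -0.69 ± 0.25 (adjusted p = 0.0634), and the response difference was 0.52 ± 0.36 (adjusted p = 0.542). With the GC and length trend removed that difference was 0.91, at an adjusted p of 0.00825. LMNB1 (ENSG00000113368.12, chromosome 5, 126776623 to 126837020, plus strand) averaged 230.2 ± 51.8 and 187 ± 24.3 CPM in LAC at 0 and 96 h, and 95.8 ± 7.51 and 89.8 ± 7.77 in LB1 (SD, n = 4, 4, 3 and 4). Its response difference was -0.20 ± 0.21 (adjusted p = 0.696), and that of LMNB2 was -0.17 ± 0.28 (adjusted p = 0.815). Both signs turned under other settings: LMNB1 was 0.00 without the 2 shallow libraries, and LMNB2 was 0.11 after removal of the GC and length trend. The degron acts on the protein, so transcript levels do not report its loss. Of 8 genes for lamins and their processing enzymes, 14 for inner nuclear membrane partners such as emerin and LBR, 8 for the LINC complex and 30 for the nuclear pore, edgeR called 0 in the response difference. In these 4 lists, in that order, 0, 4, 2 and 4 members had an unadjusted p under 0.05, DESeq2 called 0, 0, 1 and 1, and limma voom called 1, 4, 1 and 5. Among all genes tested 13% had such a p, DESeq2 called 1.8% and limma voom 6.91%. The unadjusted share of the nuclear pore genes was 13.3%.

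Genes of cystine import and of the amino acid stress response were among the higher genes. SLC7A11 (ENSG00000151012.13, chromosome 4, 138164097 to 138242349, minus strand), the cystine and glutamate exchanger that feeds glutathione synthesis, stood at 74.8, 125, 88.6 and 100.4 CPM in LAC at 0 h and 166, 188, 172 and 167 at 96 h. The LB1 libraries held 224, 234 and 211 CPM at 0 h and 117, 90.4, 90.2 and 81.7 at 96 h. The groups did not overlap within either line, and they moved in opposite directions, so that LAC started below LB1 and ended above it. SLC7A11 rose in LAC by 0.83 ± 0.14 (edgeR adjusted p = 0.00106) and fell in LB1 by 1.23 (adjusted p = 5.67e-05), a response difference of 2.06 ± 0.21 (log2 ± standard error, adjusted p = 5.36e-05). The antisense gene SLC7A11-AS1 lies over it, and how strand was used in counting is not given in the sources used here. ATF4 is the transcription factor through which cells raise amino acid uptake and synthesis under stress. Of 25 ATF4 targets tested, 3 were called higher and 0 lower, 24 lay above 0, and their median response difference was 0.51, against -0.06 over all genes. Within LB1, 15 of the 25 fell and 0 rose, and within LAC 2 rose and 6 fell. Over all genes tested, 2.46% were called in LB1 and 14.4% in LAC, in either direction.

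The other called members of that list were PSAT1 and DDIT4. PSAT1 (ENSG00000135069.14, chromosome 9, 78297125 to 78330093, plus strand), an enzyme of serine synthesis, stood at 613, 549 and 569 CPM in LB1 at 0 h and 339, 282, 292 and 291 at 96 h, a clear separation. In LAC it stood at 302, 458, 374 and 381 CPM at 0 h and 396, 448, 406 and 389 at 96 h, where the groups overlapped. The lines' responses differed by 1.05 ± 0.18 (edgeR adjusted p = 0.00888), with a fall in LB1 (adjusted p = 0.000209) and a change in LAC of 0.11 (adjusted p = 0.575). DDIT4, an inhibitor of the growth kinase mTORC1, fell in LB1 from 239 ± 46.5 to 89.2 ± 20.7 CPM (SD, n = 3 and 4) and was at 104 ± 43 and 123 ± 8.64 in LAC (SD, n = 4 each). Its response difference of 1.67 ± 0.31 (adjusted p = 0.016) was lost without replicate 3 of LAC at 96 h, replicate 3 of LB1 at 0 h or replicate 2 of LB1 at 96 h, with adjusted p of 0.0521, 0.0793 and 0.0566. The number of called ATF4 targets ran from 2 (without replicate 3 of LAC at 96 h, 3 of LB1 at 0 h or 2 of LB1 at 96 h) to 15 (limma voom with sample weights), and was 13 with the GC and length trend removed.

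NRF2 is the factor that turns on antioxidant genes, and SLC7A11 belongs to its targets too. Of 18 NRF2 targets tested, 3 were called higher (SLC7A11, NQO1 and TXNRD1), 0 lower, and 15 lay above 0, with a median of 0.48. That median was 0.32 with the GC and length trend removed. NQO1 (ENSG00000181019.13, chromosome 16, 69706996 to 69726668, minus strand), which reduces quinones, stood at 111, 166, 152 and 166 CPM in LAC at 0 h and 278, 329.9, 318 and 300 at 96 h. In LB1 it stood at 392, 412 and 426 CPM at 0 h and 293, 219, 280.1 and 239 at 96 h. Neither line's groups overlapped between times, and at 96 h the libraries of both lines covered overlapping ranges. NQO1 rose in LAC by 1.03 ± 0.13 and fell in LB1 by 0.67 (edgeR adjusted p = 6.61e-05 and 0.0109), and the response difference was 1.70 ± 0.19 (adjusted p = 0.000122). TXNRD1, the cytosolic thioredoxin reductase, was at 468 ± 46.7 and 413 ± 3.88 CPM in LAC (SD, n = 4 each) and fell in LB1 from 518 ± 10.1 to 257 ± 14.1 (SD, n = 3 and 4). Its response difference was 0.83 ± 0.15 (adjusted p = 0.016), and the call was lost without replicate 3 of LAC at 0 h, replicate 1 of LB1 at 0 h or replicate 3 of LB1 at 0 h (adjusted p 0.0565, 0.063 and 0.0842). Within LB1 4 of the 18 fell and 0 rose, and within LAC 5 rose and 0 fell. The shares of all genes called in either direction were 2.46% in LB1 and 14.4% in LAC.

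RefSeq promoter windows (GRCh38.p14, 250 bases before to 50 bases after a start) were at hand for 45 of the 68 called genes. They were searched on both strands for the core of the antioxidant response element, TGACNNNGC, which occurred in 13.3% of the 35116 windows of this length. The window at the first start of TXNRD1 holds 2 matches, which begin 99 and 8 bases before the start. It is shown as the only window searched, among those of the NRF2 targets named here, to hold 2. The window at the second start of TXNRD1 held 1, 102 bases before the start, and SLC7A11 had no window at hand. The window of NQO1 held 0. The windows of PSAT1 and DDIT4 were searched for the C/EBP-ATF element TGATGNAA, found in 3.62% of all windows, and each held 0 matches. Capitals mark the TXNRD1 matches, the second of which is on the opposite strand.
TXNRD1, chr12:104215529-104215828, plus strand: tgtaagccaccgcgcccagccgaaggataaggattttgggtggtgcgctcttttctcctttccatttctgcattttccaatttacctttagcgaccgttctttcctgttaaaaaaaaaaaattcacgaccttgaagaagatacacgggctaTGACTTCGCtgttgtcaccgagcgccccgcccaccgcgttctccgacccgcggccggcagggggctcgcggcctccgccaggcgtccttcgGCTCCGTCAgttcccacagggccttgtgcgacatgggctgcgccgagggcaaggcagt

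Lipid synthesis genes gave 2 calls, both higher. SCD (ENSG00000099194.6, chromosome 10, 100347233 to 100364826, plus strand), the desaturase that makes monounsaturated fatty acids, stood at 317, 513, 434 and 339.5 CPM in LAC at 0 h and 1059, 921, 863 and 948 at 96 h. The LB1 libraries held 1017, 936 and 1074 CPM at 0 h and 687, 610.4, 779 and 648 at 96 h. Within each line the groups were apart, and LAC after auxin overlapped LB1 before it. SCD rose in LAC by 1.24 ± 0.14 (edgeR adjusted p = 1.62e-05), fell in LB1 by 0.57 (adjusted p = 0.0466), and differed by 1.81 ± 0.21 (adjusted p = 0.000122). INSIG1, which holds back the activation of sterol-regulated transcription factors, rose in LAC from 53.2 ± 17.6 to 86.2 ± 1.43 CPM (SD, n = 4 each) and was at 168 ± 9.9 and 126 ± 9.53 in LB1 (SD, n = 3 and 4). The lines' responses differed by 1.13 ± 0.24 (adjusted p = 0.0399), and the call held in 13 of 25 alternatives, with an adjusted p of 0.135 without replicate 1 of LB1 at 0 h. Of 30 cholesterol and fatty acid synthesis genes tested, 23 lay above 0, with a median of 0.35. Within LAC 6 rose and 3 fell, and within LB1 0 rose and 2 fell. Among all genes 14.4% were called in LAC and 2.46% in LB1, in either direction. The count of calls was 1 in 11 of the 15 fits that left out 1 library, namely wherever INSIG1 was lost, and 12 with limma voom.

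CEMIP (ENSG00000103888.17, chromosome 15, 80779343 to 80951776, plus strand), which breaks down hyaluronan, stood at 73.4, 59.4, 56.4 and 49.7 CPM in LAC at 0 h and 269.9, 201, 203 and 248 at 96 h. In LB1 it stood at 420.2, 369 and 433 CPM at 0 h and 414, 476, 572 and 446 at 96 h. The LAC groups were far apart and the LB1 groups overlapped, and LAC stayed below LB1 at both times. CEMIP rose in LAC by 1.96 ± 0.15 (edgeR adjusted p = 5.92e-08), its change in LB1 was 0.23 ± 0.15 (adjusted p = 0.519), and the response difference was 1.73 ± 0.21 (adjusted p = 0.000181). MESD and other genes overlap it on the opposite strand.

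HAS2, which makes hyaluronan and was singled out after its values were seen, rose in LAC from 22.8 ± 7.08 to 77.8 ± 3.99 CPM (SD, n = 4 each) and was at 11.5 ± 1.25 and 12 ± 2.04 in LB1 (SD, n = 3 and 4). Its response difference was 1.63 ± 0.27 (edgeR adjusted p = 0.00696). LURAP1L (ENSG00000153714.6, chromosome 9, 12775020 to 12823060, plus strand) showed the largest difference among the genes called in every alternative. It stood at 1.01, 0.842, 1.12 and 0.985 CPM in LAC at 0 h and 6.89, 6.57, 7.61 and 4.29 at 96 h, and at 9.35, 12.1 and 11.6 and 12.5, 11.6, 11 and 9.39 in LB1. All LAC libraries at 96 h were above all at 0 h and below all LB1 libraries of either time. The response difference was 2.69 ± 0.33 (adjusted p = 0.000252), of which 2.74 ± 0.25 was the rise in LAC (adjusted p = 9.45e-07).

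CADPS, a factor of dense-core vesicle release, rose in LAC from 6.72 ± 2.21 to 17.2 ± 1.64 CPM (SD, n = 4 each), and was at 20.8 ± 1.74 and 14.4 ± 2.35 in LB1 (SD, n = 3 and 4), for a response difference of 1.97 ± 0.30 (edgeR adjusted p = 0.00318). CX3CL1, a membrane-bound chemokine, fell in LB1 from 9.77 ± 2.89 to 2.62 ± 0.561 CPM (SD, n = 3 and 4) and was at 4.2 ± 0.824 and 5.15 ± 0.29 in LAC (SD, n = 4 each). The lines' responses differed by 2.10 ± 0.35 (adjusted p = 0.00707). RASSF9 (ENSG00000198774.5, chromosome 12, 85800703 to 85836409, minus strand), of the Ras association family, fell in LB1. It stood at 8.46, 10.9, 10.1 and 10.1 CPM in LAC at 0 h, 9.38, 10.3, 11.9 and 12.6 in LAC at 96 h and 12.1, 10.0 and 10.1 in LB1 at 0 h, groups that overlapped, and at 3.54, 1.99, 2.87 and 2.22 in LB1 at 96 h, below all of them. Its response difference was 2.17 ± 0.29 (adjusted p = 0.000579).

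The calls of some secreted and signalling genes depended on single libraries. DACT1, a binding partner of Dishevelled, differed by 2.69 ± 0.51, CTHRC1, a secreted glycoprotein of repair, by 1.77 ± 0.34, and the semaphorin SEMA6B by 2.07 ± 0.42 (edgeR adjusted p = 0.0178, 0.0178 and 0.0304). DACT1 and CTHRC1 rose in LAC, whereas SEMA6B fell in LB1. Without replicate 3 of LB1 at 0 h the adjusted p of DACT1, CTHRC1 and SEMA6B became 0.091, 0.148 and 0.171, and each was also lost on leaving out at least 2 other libraries. SLC47A1, an exporter of organic cations, had the largest fitted difference of all, 4.92 ± 0.98 (adjusted p = 0.0273), but it rests on 1 count in the 4 LB1 libraries at 96 h against 10 in the 3 at 0 h. The ratio of the LB1 levels was 0.0604, with an exact 95% interval of 0.00139 to 0.424 that covers counting error only, so the fitted size depends on the prior count. In LAC SLC47A1 rose from 1.31 ± 0.243 to 3.39 ± 0.461 CPM (SD, n = 4 each).

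**Figure D2:**
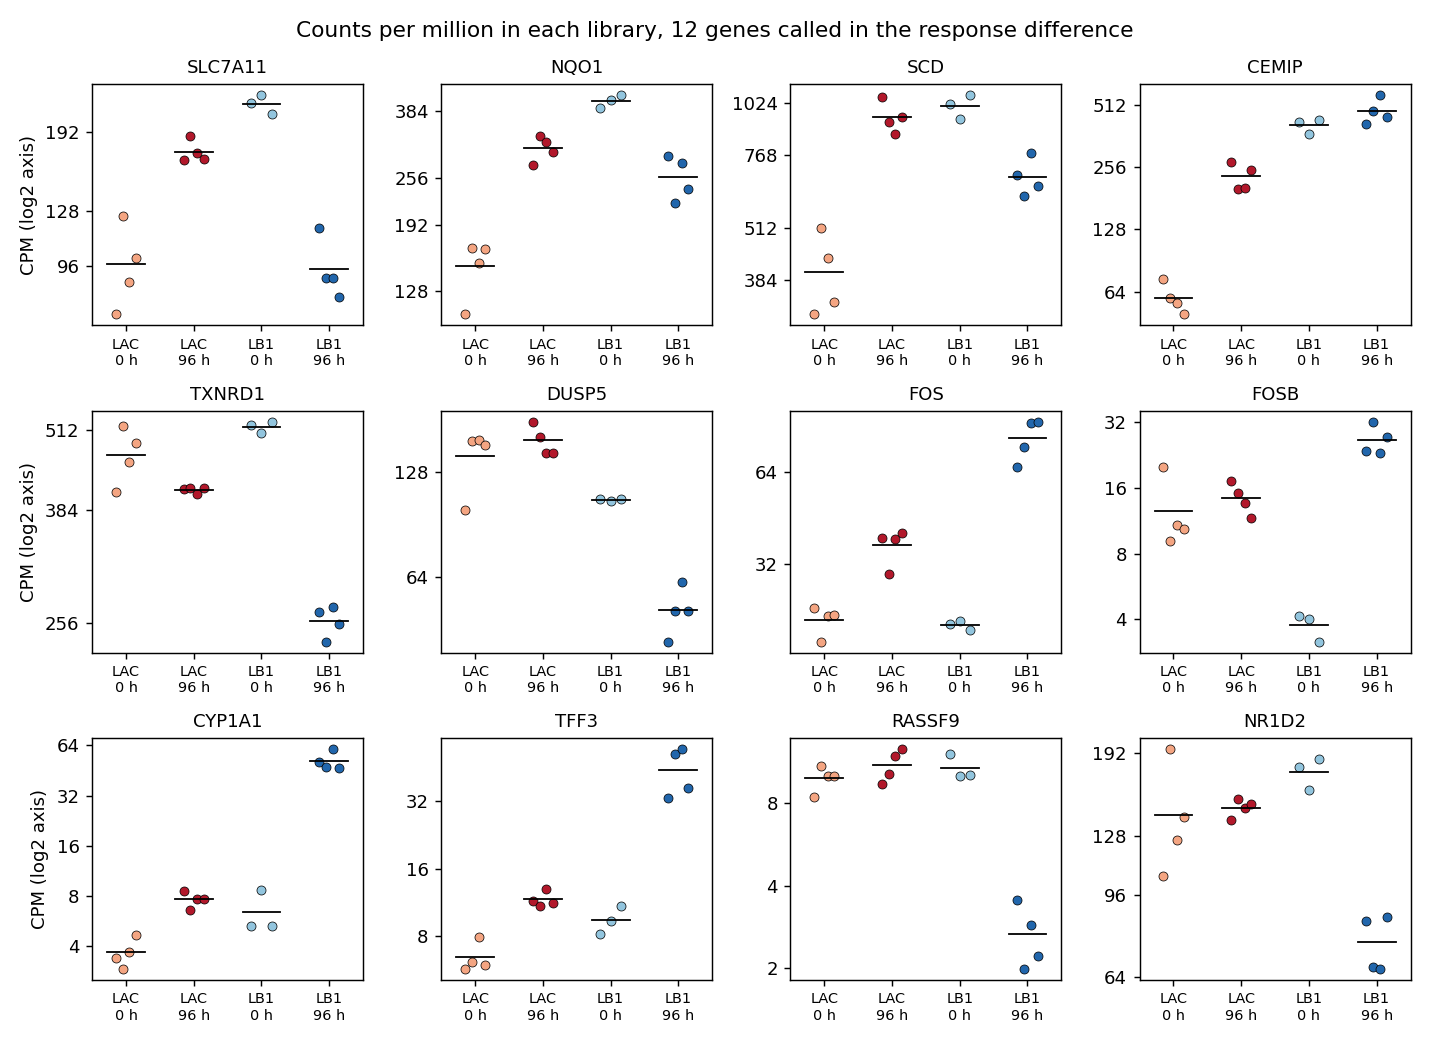
CPM (log2 axis, TMM-scaled) of 12 called genes in each of the 15 libraries, by line and time; points are libraries and bars are group means. SLC7A11, NQO1 and SCD rise in LAC and fall in LB1, TXNRD1, DUSP5, RASSF9 and NR1D2 fall in LB1, and FOS, FOSB, CYP1A1 and TFF3 reach their highest levels in LB1 at 96 h.

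The AP-1 genes FOS and FOSB moved the other way. Both are immediate early genes, transcribed within minutes of a growth or stress signal, and their proteins pair with JUN proteins on DNA. FOSB (ENSG00000125740.14, chromosome 19, 45467995 to 45475179, plus strand, overlapped by ERCC1 on the opposite strand) stood at 20.0, 9.12, 10.9 and 10.4 CPM in LAC at 0 h and 17.2, 15.2, 13.6 and 11.6 at 96 h. The LB1 libraries held 4.12, 4.02 and 3.16 CPM at 0 h and 23.6, 32.1, 23 and 27.3 at 96 h. The LB1 groups were far apart, and those of LAC overlapped. FOSB rose in LB1 by 2.83 ± 0.27 (edgeR adjusted p = 2.34e-06), its change in LAC was 0.28 ± 0.21 (adjusted p = 0.392), and the response difference was -2.54 ± 0.34 (adjusted p = 0.000579). FOS (ENSG00000170345.10, chromosome 14, 75278826 to 75282230, plus strand) stood at 23, 17.8, 21.6 and 21.8 CPM in LAC at 0 h and 38.8, 29.7, 38.6 and 40.5 at 96 h, and at 20.4, 20.8 and 19.4 and 66.8, 77.2, 92.8 and 93.8 in LB1. It rose in both lines without overlap, by 0.83 ± 0.15 in LAC and 2.04 ± 0.17 in LB1, and the difference was -1.21 ± 0.22 (adjusted p = 0.0127). The FOS call was lost without replicate 1 or 3 of LB1 at 0 h (adjusted p 0.0517 and 0.0713).

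Of 21 immediate early genes tested, 2 were called lower and 0 higher, and 17 lay below 0, with a median of -0.65. That median was -0.46 with the GC and length trend removed. Within LB1 6 rose and 2 fell, and within LAC 3 rose and 4 fell. Calls in either direction took 2.46% of all genes in LB1 and 14.4% in LAC. The count of calls was 1 without replicate 1 of LB1 at 0 h and 12 with limma voom. Among 17 feedback genes of the MAP kinase pathway the 1 call was DUSP5, the nuclear phosphatase of ERK, and it was higher. DUSP5 fell in LB1 from 106 ± 0.564 to 51.3 ± 8.16 CPM (SD, n = 3 and 4), was at 142 ± 28.5 and 157 ± 15.7 in LAC (SD, n = 4 each), and differed by 1.20 ± 0.22 (edgeR adjusted p = 0.0127). Without replicate 1 or 3 of LB1 at 0 h its adjusted p was 0.0517 and 0.0678. Of 27 SRF targets and 21 YAP targets, which respond to the actin cytoskeleton, edgeR called 0 in the response difference, although 16 SRF targets fell in LAC and 10 in LB1, and 10 YAP targets fell in LAC and 11 in LB1. Over all genes, 14.4% were called in LAC and 2.46% in LB1, in either direction. An unadjusted p under 0.05 for the response difference was found for 8 SRF and 6 YAP targets, DESeq2 called 2 and 2, and limma voom 7 and 5. The shares of all genes were 13%, 1.8% and 6.91%.

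The windows of FOS and FOSB are shown since both genes rose in LB1. Each holds 1 match to the core of the cyclic AMP response element, TGACGT, searched on both strands and found in 7.98% of all windows. It begins 64 bases before the start in FOS and 60 before it in FOSB, and is printed in capitals.
FOS, chr14:75278578-75278877, plus strand: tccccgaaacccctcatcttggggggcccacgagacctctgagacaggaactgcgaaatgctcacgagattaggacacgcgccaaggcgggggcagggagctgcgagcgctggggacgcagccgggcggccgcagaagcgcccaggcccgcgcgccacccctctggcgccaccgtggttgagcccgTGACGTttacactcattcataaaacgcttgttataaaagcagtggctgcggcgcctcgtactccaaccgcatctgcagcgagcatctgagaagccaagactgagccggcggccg
FOSB, chr19:45467746-45468045, plus strand: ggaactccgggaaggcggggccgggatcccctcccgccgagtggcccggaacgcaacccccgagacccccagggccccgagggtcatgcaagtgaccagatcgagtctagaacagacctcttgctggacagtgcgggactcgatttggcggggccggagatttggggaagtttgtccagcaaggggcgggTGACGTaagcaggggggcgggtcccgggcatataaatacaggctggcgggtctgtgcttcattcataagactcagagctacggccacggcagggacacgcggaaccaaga

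CYP1A1, the monooxygenase that is the classic output of the aryl hydrocarbon receptor, gave a large difference in the same direction. It stood at 3.38, 2.93, 3.68 and 4.7 CPM in LAC at 0 h and 8.54, 6.63, 7.71 and 7.69 at 96 h. In LB1 it stood at 5.28, 8.7 and 5.3 CPM at 0 h and 51.2, 47.6, 60.9 and 46.6 at 96 h. Groups did not overlap in either line, and all LB1 libraries at 96 h were several times above every LAC library. CYP1A1 (ENSG00000140465.15, chromosome 15, 74719542 to 74725536, minus strand) rose in LAC by 1.06 ± 0.19 and in LB1 by 3.17 ± 0.21 (edgeR adjusted p = 0.00146 and 2.71e-08), and the response difference was -2.11 ± 0.28 (adjusted p = 0.000579). Of 10 genes of this pathway tested, NQO1 was called higher and CYP1A1 lower, with a median of 0.26. That median was 0.14 with the GC and length trend removed, and 0.344% of all genes tested were called. The promoter window of CYP1A1 holds 1 match to the core of the xenobiotic response element, GCGTG, 57 bases before the start and in capitals. This short motif is in 36.5% of all windows.
CYP1A1, chr15:74725479-74725778, minus strand: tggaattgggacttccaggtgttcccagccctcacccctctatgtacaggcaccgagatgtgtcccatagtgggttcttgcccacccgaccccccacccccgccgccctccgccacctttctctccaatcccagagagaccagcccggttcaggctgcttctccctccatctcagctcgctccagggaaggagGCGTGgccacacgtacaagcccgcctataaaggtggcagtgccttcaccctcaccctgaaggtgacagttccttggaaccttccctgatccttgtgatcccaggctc

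Of 17 intestinal lineage genes tested, 12 lay below 0, with a median of -0.50 (-0.10 after removal of the GC and length trend), and 2 were called, TFF3 lower and AGR2 higher. TFF3, a peptide of goblet cell mucus, rose in LAC from 6.47 ± 1.03 to 11.7 ± 0.952 CPM (SD, n = 4 each) and in LB1 from 9.48 ± 1.34 to 43.7 ± 10.6 (SD, n = 3 and 4), and differed by -1.36 ± 0.28 (edgeR adjusted p = 0.0322). Its call held in 14 of 25 alternatives, and the adjusted p was 0.153 without replicate 1 of LB1 at 0 h. AGR2, a disulfide isomerase of mucin-making cells, rose in LAC from 233 ± 76.2 to 536 ± 57.8 CPM (SD, n = 4 each) and was at 755 ± 81.9 and 574 ± 64.7 in LB1 (SD, n = 3 and 4). It differed by 1.59 ± 0.27 (adjusted p = 0.00888, but 0.0586 when replicate 3 of LB1 at 0 h was left out). TFF3 was not called either without that library (adjusted p 0.0699). Of the 17 genes 6 rose and 0 fell in LB1, and 4 rose and 1 fell in LAC. Called in either direction were 2.46% of all genes in LB1 and 14.4% in LAC.

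A further 3 lower genes met the rule for naming. KRTAP3-1, a keratin-associated protein gene known from hair, fell in LAC from 8.65 ± 3.61 to 2.84 ± 0.928 CPM (SD, n = 4 each) and was at 0.833 ± 0.438 and 1.75 ± 0.532 in LB1 (SD, n = 3 and 4), a difference of -3.09 ± 0.56 (edgeR adjusted p = 0.0133). Its adjusted p was 0.114 and 0.0919 without replicate 1 or 3 of LB1 at 0 h. STING1, the adaptor that signals cytosolic DNA to interferon genes, rose in LB1 from 1.45 ± 0.669 to 8.12 ± 2.17 CPM (SD, n = 3 and 4) and was at 6.54 ± 1.21 and 9.3 ± 1.47 in LAC (SD, n = 4 each). Its difference was -1.86 ± 0.40 (adjusted p = 0.0399), called in 13 of 25 alternatives, with an adjusted p of 0.216 without replicate 3 of LB1 at 0 h. The potassium channel gene KCNK5 rose in LB1 from 4.9 ± 1.37 to 15.3 ± 2.8 CPM (SD, n = 3 and 4), was at 15.1 ± 2.33 and 18.6 ± 2.65 in LAC (SD, n = 4 each), and differed by -1.46 ± 0.30 (adjusted p = 0.0322). It was called in 14 of 25 alternatives, with an adjusted p of 0.185 without replicate 1 of LB1 at 0 h. Of 33 interferon-stimulated genes tested, the 1 call was HERC5, a ligase of the ubiquitin-like protein ISG15, while 0.344% of all genes were called. HERC5 was higher by 1.31 ± 0.27 (adjusted p = 0.0322), with 7.87 ± 0.768 and 3.86 ± 0.359 CPM in LB1, where it fell, and 10.5 ± 1.73 and 13.5 ± 2.01 in LAC. Its call held in 16 of 25 alternatives, with an adjusted p of 0.133 without replicate 3 of LB1 at 0 h.

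Transcripts of the mitochondrial genome made up much of the lower group. This genome encodes subunits of respiratory chain complexes and of ATP synthase, transcribed as long precursors from both strands. All 13 protein-coding genes lay below 0, with a median response difference of -1.73, and 8 were called: MT-ND6, MT-ND5, MT-ND2, MT-ATP6, MT-ND1, MT-ND4, MT-CO2 and MT-CYB. The list was written after these values were seen. Of all 19743 genes tested, 10703 lay below 0 and 0.344% were called. The median of the 13 was -1.70 with the GC and length trend removed. MT-ND5 (ENSG00000198786.2, chromosome M, 12337 to 14148, plus strand), a subunit of complex I, stood at 723, 487, 827 and 727 CPM in LAC at 0 h and 411, 307, 273 and 282 at 96 h. The LB1 libraries held 767, 619 and 407 CPM at 0 h and 1334, 932, 949.9 and 1255 at 96 h. Neither line's groups overlapped, and the lines overlapped at 0 h. MT-ND5 fell in LAC by 1.12 and rose in LB1 by 0.90 (edgeR adjusted p = 0.00106 and 0.0224), a response difference of -2.02 ± 0.29 (adjusted p = 0.00135).

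MT-ND6 (ENSG00000198695.2, chromosome M, 14149 to 14673, minus strand), alone among the 13 on the minus strand, stood at 176, 96.4, 174 and 152 CPM in LAC at 0 h and 91.7, 57.7, 47.5 and 55.9 at 96 h, and at 193, 149 and 87.2 and 359, 235, 211 and 302 in LB1. The groups did not overlap within either line. Its response difference was -2.19 ± 0.36 (edgeR adjusted p = 0.00696). MT-ND2 and MT-ATP6, like MT-ND5, fell in LAC and rose in LB1, with differences of -1.90 ± 0.29 and -1.83 ± 0.30 (adjusted p = 0.00373 and 0.00707). Those of MT-ND1, MT-ND4, MT-CO2 and MT-CYB were -1.82, -1.73, -1.66 and -1.55 (adjusted p = 0.0105, 0.0107, 0.00553 and 0.0356). The call of MT-CYB was weak: it was lost in 15 of 25 alternatives, among them 13 of the 15 that left out 1 library, with an adjusted p of up to 0.156. MT-ND4 was not called without replicate 3 of LB1 at 0 h (adjusted p 0.0652). The smallest differences were those of MT-CO3 and MT-CO1, -0.95 and -0.94 (adjusted p = 0.242 and 0.292), whose changes in LAC were -0.06 and -0.08. MT-ATP8 overlaps MT-ATP6, MT-ATP6 overlaps MT-CO3 and MT-ND4L overlaps MT-ND4, so reads of these pairs may be split.

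The 13 genes summed to between 6702 and 14210 CPM in LAC at 0 h, 7363 and 9307 in LAC at 96 h, 8937 and 14630 in LB1 at 0 h, and 17650 and 24840 in LB1 at 96 h. As a share of all counts, all genes of the mitochondrial chromosome, ribosomal RNAs included, took 1.21% ± 0.354 in LAC at 0 h and 0.934% ± 0.0231 at 96 h. In LB1 they took 1.55% ± 0.0484 at 0 h and 2.63% ± 0.444 at 96 h (SD, n = 4, 4, 3 and 4). The ribosomal RNA MT-RNR2 stood at 136, 2754 and 3384 CPM in LB1 at 0 h, where the 13 genes summed to 14630, 10970 and 8937. The spread of this share is therefore not that of the 13 genes. Only LB1 at 96 h stood clear of the other groups, both in the sums of the 13 genes and in the share. The number of the 13 called ran from 6 without replicate 3 of LB1 at 0 h to 13 without the 2 shallow libraries. Of 81 nuclear-encoded respiratory chain genes tested, edgeR called 0, DESeq2 0 and limma voom 6, and 14 had an unadjusted p under 0.05, with a median difference of -0.16. Within LAC 10 of the 81 fell and 1 rose, while 14.4% of all genes were called there in either direction. The unadjusted share was 17.3% for the 81 and 13% for all genes, of which limma voom called 6.91%.

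**Figure D3:**
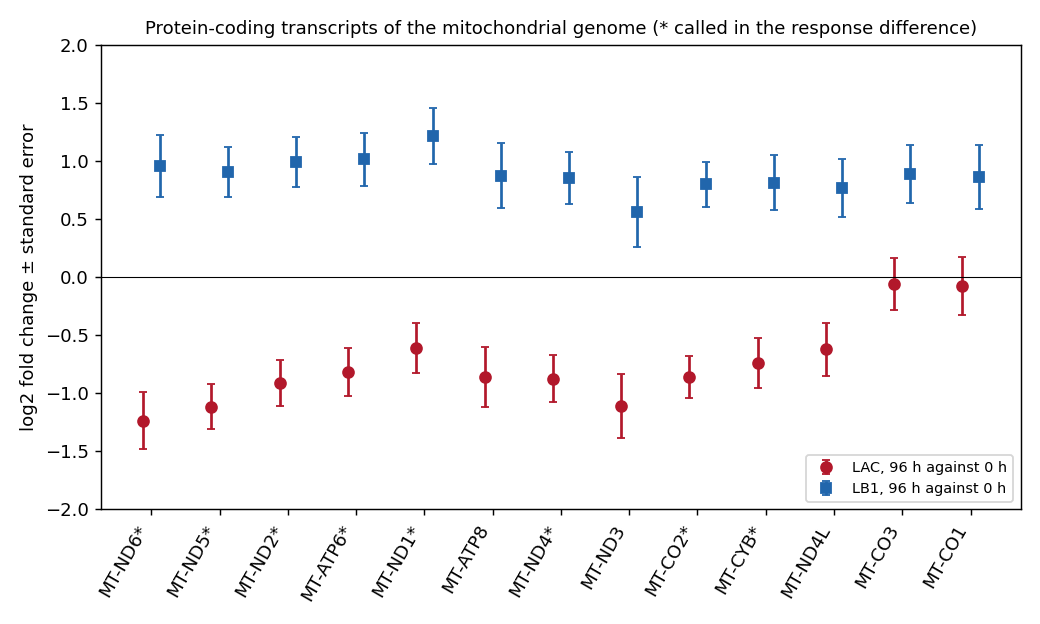
Log2 fold change from 0 to 96 h, with the standard error of the fit, for the 13 protein-coding genes of the mitochondrial genome in LAC (circles) and LB1 (squares), ordered by response difference; asterisks mark the 8 called genes. LB1 values lie above 0 for all 13, and LAC values lie below 0, with MT-CO3 and MT-CO1 nearest to it.

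Clock genes were led by 2 calls, both higher. TEF is a transcription factor that binds D-box elements, and NR1D2 encodes the nuclear receptor REV-ERB beta, a repressor in the feedback loop of the clock. NR1D2 (ENSG00000174738.13, chromosome 3, 23945286 to 23980617, plus strand, overlapped by NKIRAS1 on the opposite strand) stood at 179.5, 161 and 186 CPM in LB1 at 0 h and 84.1, 67.2, 66.7 and 85.8 at 96 h, and at 105, 196, 126 and 140.3 and 139, 153, 147 and 149.6 in LAC. The LB1 groups were apart and the LAC groups overlapped. It fell in LB1 by 1.21 (edgeR adjusted p = 0.000141), its change in LAC was 0.04, and the response difference was 1.26 ± 0.22 (adjusted p = 0.0122). TEF fell in LB1 from 36.6 ± 3.9 to 17.8 ± 2.1 CPM (SD, n = 3 and 4), was at 20.4 ± 2.44 and 24.4 ± 4.12 in LAC (SD, n = 4 each), and differed by 1.29 ± 0.23 (adjusted p = 0.0107). Without replicate 3 of LB1 at 0 h both had an adjusted p of 0.0699, and without replicate 1 of that group NR1D2 had 0.0503. Of 17 clock genes tested 13 lay above 0, with a median of 0.18 (0.24 with the GC and length trend removed). Of all 19743 genes tested, 9040 lay above 0 and 0.344% were called.

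The window at the second start of NR1D2 is shown because it holds elements of 2 kinds used by the clock. It has 1 match to the D-box TTATGTAA, 194 bases before the start and on the opposite strand, and 2 to the E-box CACGTG, 155 and 105 bases before it. Searched on both strands, these are in 0.886% and 7.26% of all windows. The window at the first start of NR1D2 holds 0 matches to either element. Both TEF windows hold 1 E-box, 195 and 193 bases before the start. Capitals mark the matches.
NR1D2, chr3:23945871-23946170, plus strand: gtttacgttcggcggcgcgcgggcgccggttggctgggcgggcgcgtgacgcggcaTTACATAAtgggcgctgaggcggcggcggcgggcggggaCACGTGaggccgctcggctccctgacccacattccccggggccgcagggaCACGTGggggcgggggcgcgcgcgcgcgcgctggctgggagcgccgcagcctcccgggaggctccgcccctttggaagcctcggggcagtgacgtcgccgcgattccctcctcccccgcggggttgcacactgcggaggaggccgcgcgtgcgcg

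Other lists held 1 call or none in the response difference. All 11 integrin genes tested lay above 0, with a median of 0.50, and ITGB8, an integrin beta subunit, was called (1.00 ± 0.21, edgeR adjusted p = 0.0349). The integrin median was 0.39 with the GC and length trend removed. Of all 19743 genes tested, 9040 lay above 0 and 0.344% were called. ITGB8 rose in LAC from 25.3 ± 3.38 to 37.1 ± 1.92 CPM (SD, n = 4 each) and was at 17.1 ± 2.05 and 12.8 ± 1.25 in LB1 (SD, n = 3 and 4). Its call held in 11 of 25 alternatives, and the adjusted p was 0.0567 with the GC and length trend removed and 0.151 without replicate 3 of LB1 at 0 h. No call by edgeR fell among 25 heterochromatin writers and readers, 24 junction genes, 12 cytoplasmic intermediate filament genes, 22 p53 targets, 34 mitotic genes and 36 genes of DNA replication. At an unadjusted p under 0.05 these lists held 0, 7, 2, 7, 3 and 3 genes, DESeq2 called 0, 2, 0, 1, 0 and 0, and limma voom 0, 5, 0, 5, 4 and 2. The count was also 0 for 28 genes of hypoxia and glycolysis, 21 cytokines and chemokines, 19 WNT targets and 12 retinoid genes, with 4, 5, 3 and 2 at an unadjusted p under 0.05, 2, 1, 1 and 0 called by DESeq2 and 2, 4, 2 and 2 by limma voom. For 41 replication-dependent histone genes of chromosome 6, 162 zinc finger genes of chromosome 19 and 5 abundant nuclear noncoding RNAs the count by edgeR was again 0, with 8, 18 and 2 at an unadjusted p under 0.05, 0, 1 and 0 by DESeq2 and 9, 6 and 1 by limma voom. For comparison, 13% of all genes tested had an unadjusted p under 0.05, DESeq2 called 1.8% and limma voom 6.91%. The unadjusted share was 11.1% for the zinc finger genes.

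Of 81 cytosolic ribosomal protein genes, 69 lay below 0, with a median of -0.34, and edgeR called 0, DESeq2 3 and limma voom 18, with 25 at an unadjusted p under 0.05. Many of these genes have near-identical processed copies, so their counts are uncertain. Of 27 small nucleolar RNA host genes, 25 lay below 0, with a median of -0.30, and edgeR called 0, DESeq2 1 and limma voom 2, with 6 at an unadjusted p under 0.05. The unadjusted shares were 30.9% for the ribosomal protein genes and 22.2% for the host genes, against 13% of all genes. DESeq2 called 1.8% of all genes and limma voom 6.91%.

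**Figure D4:**
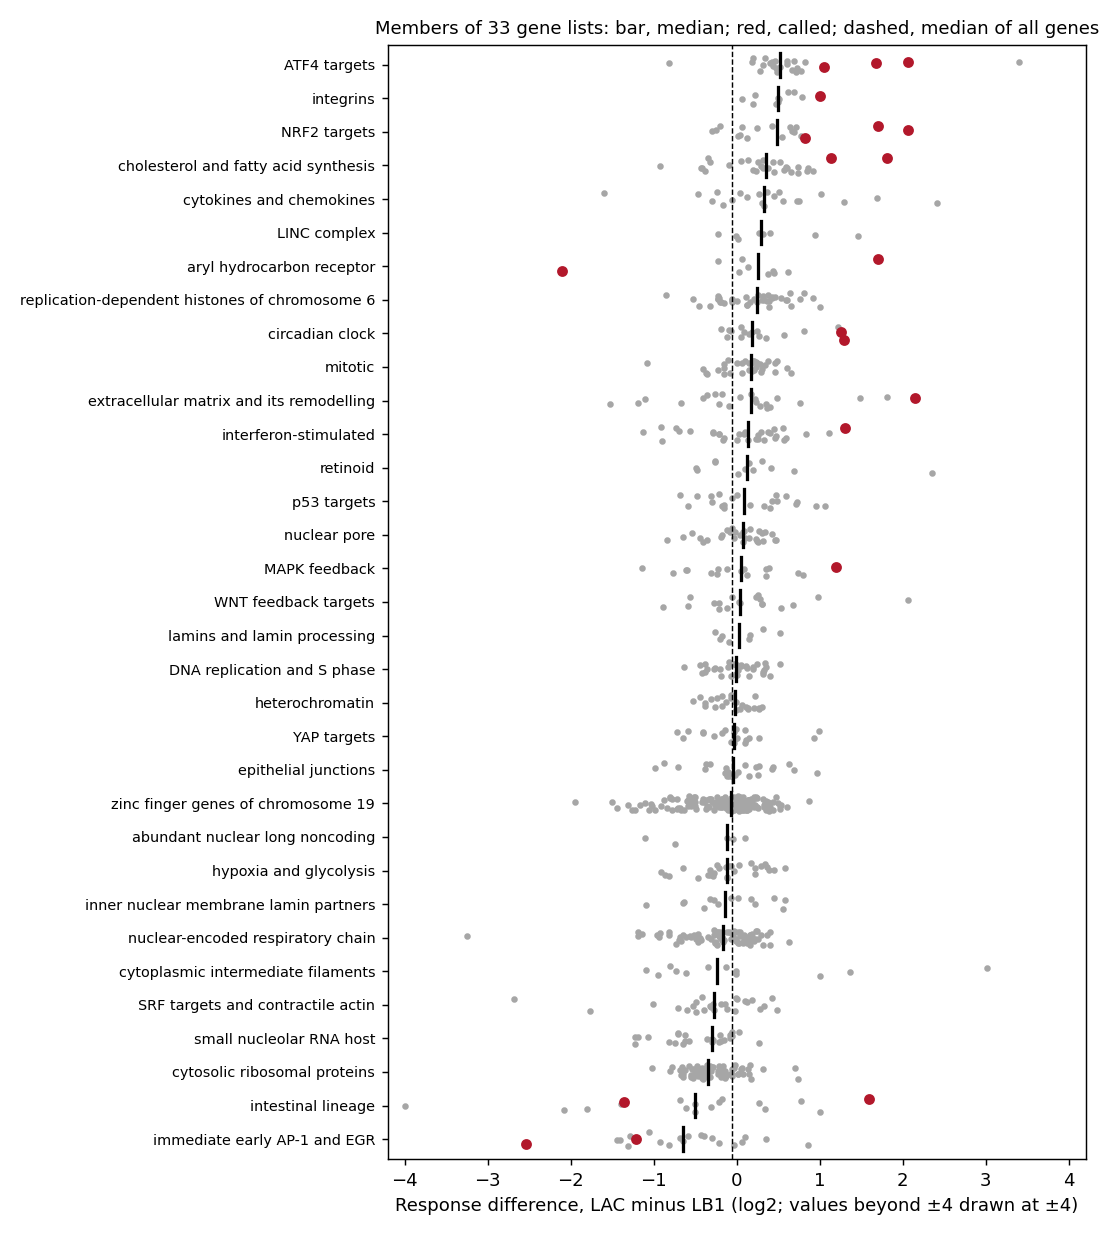
Response difference (log2, LAC minus LB1) of every tested member of 33 gene lists, with called members in red, list medians as bars and the median over all genes as a dashed line. Lists are ordered by median, from 0.51 for ATF4 targets at the top to -0.65 for immediate early genes at the bottom. All values are from the fit without removal of the GC and length trend.

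The lines differed before auxin. At 0 h 3353 genes (17%) were called between LAC and LB1, 1481 (7.5%) lower in LAC and 1872 (9.48%) higher, and at 96 h 2926 (14.8%), 1432 (7.25%) lower and 1494 (7.57%) higher. Over 8570 genes (not independent), the difference between lines had a Spearman correlation with GC content of 0.52 at 0 h and 0.04 at 96 h. With the GC and length trend removed it was 0.07 and 0.08, and 4204 and 4639 genes were called. The counts below come from the fit without that removal. The difference at 96 h is the difference at 0 h plus the response difference, so the response difference holds the 0 h values with opposite sign. Choosing genes by it favours higher genes that were low in LAC at 0 h and lower genes that were high, and the counts that follow only describe the called genes. Of the 47 higher genes, 31 were called lower in LAC than in LB1 at 0 h and 4 were called higher. At 96 h 6 were called lower and 22 higher, and for 30 of the 47 the lines stood closer at 96 h than at 0 h. CEMIP, for example, was lower in LAC by 2.78 on the log2 scale at 0 h and by 1.05 at 96 h (edgeR adjusted p = 1.21e-10 and 2.03e-05), and AGR2 stood at -1.69 and -0.10 (adjusted p = 6.34e-06 and 0.761). Of the 21 lower genes, 8 were called higher in LAC at 0 h and 0 lower. At 96 h 15 were called lower in LAC and 0 higher, and for 13 the lines stood further apart than before. CYP1A1 went from -0.64 to -2.75 (adjusted p = 0.0537 and 3.33e-10), and MT-ND5 from 0.21 to -1.81 (adjusted p = 0.546 and 1.55e-06).

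**Figure D5:**
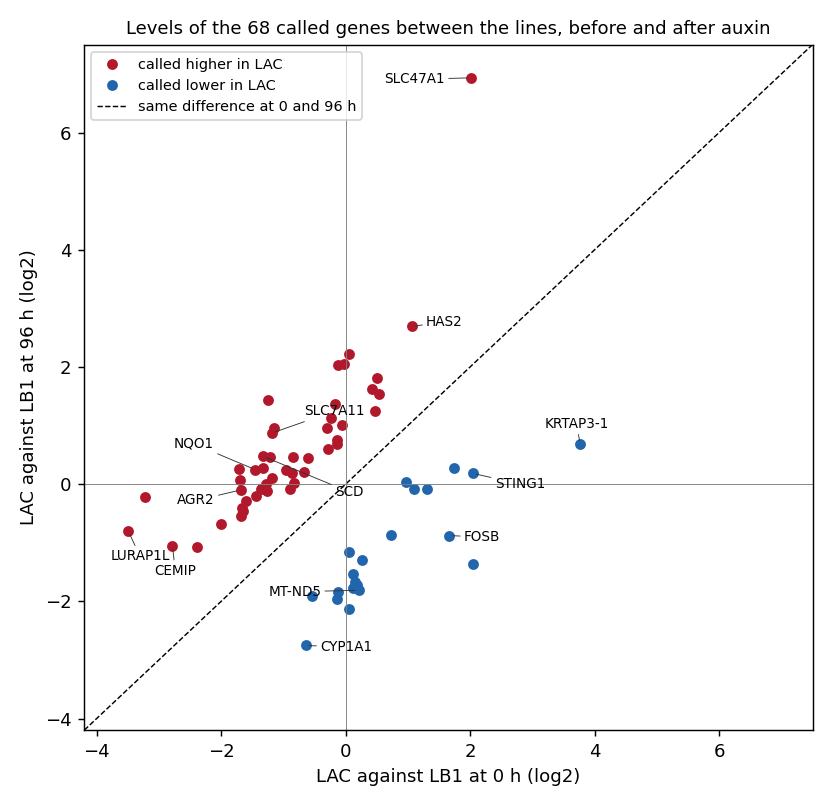
Log2 difference of LAC from LB1 at 0 h (x axis) and at 96 h (y axis) for the 68 called genes; the dashed line marks the same difference at both times. Higher genes (red) lie above the line, with 31 of 47 called lower in LAC at 0 h, and lower genes (blue) lie below it, with 15 of 21 called lower in LAC at 96 h.

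At 16 h of auxin, tested with 4 further libraries of each line and the same 0 h libraries, 67 of 20511 genes (0.327%) had a called response difference, 21 higher and 46 lower. Because both times share the 0 h libraries, the values are set side by side only. SLC7A11 differed by 1.26 at 16 h and 2.06 at 96 h, NQO1 by 0.87 and 1.70, SCD by 0.92 and 1.81, and INSIG1 by 0.93 and 1.13, with adjusted p at 16 h of 0.00973, 0.0386, 0.0386 and 0.0492 by edgeR. CYP1A1 differed by -1.25 and -2.11, and KRTAP3-1 by -2.94 and -3.09 (adjusted p at 16 h 0.0407 and 0.0156). FOS stood at -0.08 at 16 h and -1.21 at 96 h, FOSB at -0.65 and -2.54, and MT-ND5 at -0.37 and -2.02, with adjusted p at 16 h of 0.918, 0.387 and 0.57. Whether the differences at 16 and 96 h differ from each other was not tested. The count of calls at 16 h fell to 0 in edgeR without replicate 1 of LB1 at 0 h, where 2772 genes had an unadjusted p under 0.05. It rose to 1124 when replicate 2 of LAC at 0 h was omitted.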

How the data were processed

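RNA-seq libraries of DLD-1 cells were made from total RNA after depletion of ribosomal RNA with a stranded kit, per the labels' protocols. What the authors deposited is 1 count table of unnormalized whole numbers, with a column for each of 46 libraries, made with featureCounts 1.6.4, per the file headers. STAR 2.7.10a, SAMtools 1.10 and the genome build GRCh38 are named in the submitters' processing notes. The annotation release, the strand option of the counting and the treatment of multiply mapped reads are not given in the sources used here, so counts of overlapping, antisense and near-identical genes are uncertain. All 46 count columns were matched to libraries by name. The table held 62756 genes, and 1 gene broken over several lines was left out. Gene types and GC content came from GENCODE release 29, which held 92.9% of the genes, and overlaps came from the positions in the count table. Replicates were compared pairwise, and over 21 pairs the ratio of chi-square to its degrees of freedom was at least 3.98, so none was as close as sampling noise. The highest ratios were those of replicate 1 of LAC at 0 h, at 92.2, 40.6 and 57.9 against replicates 2, 3 and 4. Outside LAC at 0 h the ratio was at most 20.3.

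A quasi-likelihood model in edgeR 4.0.16 (R 4.3.3) was fitted to the counts of the 15 libraries with 1 coefficient per group, TMM scaling and the filterByExpr filter, which left 19743 genes. The contrast was the LAC change minus the LB1 change. The 16 h contrast used the 23 libraries of both lines. P-values are two-sided and adjusted by the Benjamini-Hochberg method over all genes tested, with a threshold of 0.05. CPM values are counts scaled to 1000000 with TMM factors, given as mean ± SD or per library in the order of replicate number, and log2 values carry the standard error of the fit. The test was checked on simulated counts with known changes.

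Alternatives used DESeq2 1.42.0, RLE or library-size scaling, all genes without a low-count filter, limma 3.58.1 voom with sample quality weights, removal of each library's GC and length trend, the replicate number as a block with and without that removal, a fit to all 46 libraries, leaving out the 2 libraries under 5000000 counts, and leaving out each library in turn. Named genes were the 3 lamin genes, the 12 protein-coding genes with the largest positive and the 12 with the largest negative difference (mean of at least 1 CPM, called also with the trend removed and in the fit to all 46), up to 6 called in opposite directions in both lines, and up to 4 called members of each list. The groups compared and the gene lists were chosen with earlier results of these data known. Other genes named, and the mitochondrial list, were chosen after their values were seen. Promoter sequences are from RefSeq. Of the genes the rule names, 1 is not reported here.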

Additional observations from a re-analysis of the deposited data

Results flagged for a closer look

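The 68 genes called in the response difference are differences between the lines under the same contrast, tested by the contrast itself. Of these, 10 changed in opposite directions in the lines, each change called by edgeR. The 6 with the largest difference were SLC47A1 (4.92, log2), SLC7A11 (2.06), MT-ND5 (-2.02), MT-ND2 (-1.90), MT-ATP6 (-1.83) and SCD (1.81). All of them except SLC47A1 were called in every alternative.

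Among 120 groups of 4 libraries for 40 named genes, 9 held a library far from the other 3 by Dixon's criterion, where chance alone would give about 1 in 20. Replicate 1 of LAC at 0 h, a library of 3318819 counts, stood above the others for LMNB1 (308 CPM, others at most 206) and FOSB (20.0 CPM, others at most 10.9). It stood below them for DUSP5 (99.2 CPM, others from 153 to 158). Replicate 1 of LB1 at 96 h stood apart for PSAT1 (339 CPM) and for SLC47A1 (0.0803 CPM, with 0 in the others). Single cases were SEMA6B in replicate 4 of LB1 at 96 h (7.07 CPM), CTHRC1 in replicate 3 of LAC at 0 h (1.92 CPM), KRTAP3-1 in replicate 1 of LAC at 96 h (4.22 CPM) and TXNRD1 in replicate 3 of LAC at 96 h (407 CPM, others from 414 to 415).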

How the results depend on the processing

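All 68 calls kept their sign in each alternative that could test them. Against 68 calls, the count was 343 with no low-count filter, 355 with DESeq2, 1364 with limma voom, 360 with the GC and length trend removed, 335 with the trend removed and a replicate block, 216 in the fit to all 46 libraries and 326 without the libraries under 5000000 counts, and between 64 and 68 of the 68 remained in each. RLE scaling gave 70 calls and library size only 93, of which 78.5% were higher, against 69.1% with TMM. Leaving out 1 library gave from 20 to 482 calls. For single genes, 1360 values kept their side of the threshold, 402 lost it, 5 gained it and 4 changed sign, all of lamin genes that were not called: LMNB1 was 0.0010 without the libraries under 5000000 counts, and LMNB2 was 0.11 with the trend removed, 0.16 with the trend removed and a replicate block, and from -0.3243 to 0.0085 when single libraries were left out, above 0 without replicate 1 of LAC at 0 h. The cause was not tested.

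For LAC at 96 h against 0 h (2849 genes), limma voom called 5484 and single omissions gave 1311 to 4487. For LB1 (486), DESeq2 called 913, limma voom 1509, the trend removed 1333, a replicate block with the trend removed 1099, and the fit without the shallow libraries 1213, with 191 to 1672 over single omissions. For the lines at 0 h (3353), limma voom called 5671 and single omissions gave 1793 to 4372. At 96 h (2926), limma voom called 5867, the trend removed 4639 and the fit without shallow libraries 5547, with 1796 to 5282 over single omissions. For the 16 h difference (67), no filter gave 687, DESeq2 692, limma voom 680, the trend removed 328, the same with a replicate block 635, and no shallow libraries 157, with 0 to 1124 over single omissions.

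With the replicate number as a block, the counts were 43 for the response difference at 96 h, 314 for LB1 and 204 for the difference at 16 h. Of the 68 calls at 96 h, 39 remained with the block and 29 were lost, among them SLC47A1, DACT1, CTHRC1, TXNRD1, INSIG1, STING1, KCNK5, ITGB8, MT-CYB, MTND2P28, STEAP2 and SAT1. For libraries of different groups that shared a number, the correlation of their deviations ran from -0.57 to 0.62 over 21 pairs, with a median of 0.00. Over 63 pairs of different number it ran from -0.63 to 0.70, with a median of 0.01. Within LAC, between 0 and 96 h, it was 0.39, 0.62, -0.02 and 0.00 for replicates 1 to 4. Within LB1 it was 0.33, -0.12 and 0.14 for replicates 1 to 3. The main fit did not take the numbers to pair the samples, but these values do not settle whether some libraries were paired within a line. A further split ran through the ribosomal RNA MT-RNR2. In LAC at 96 h it stood at 68.9, 40.7, 1143 and 1136 CPM in replicates 1 to 4. In LB1 at 96 h it stood at 486, 189, 4014 and 4528. At 0 h, replicate 2 of LAC (50.9 CPM) and replicate 1 of LB1 (136) also lay far below the rest of their groups. The main fit has no term for this split, and its cause was not tested. Depth limits low genes: in the shallowest library 3 counts are 2.06 CPM.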

Other observations

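The 31 called genes outside the naming rule held some of related function, and those given here were chosen after their values were seen. STEAP1 and STEAP2, neighbouring genes of a family of metalloreductases on chromosome 7, rose in LAC by 1.79 and 1.37 (log2, edgeR adjusted p = 1.27e-05 and 1.85e-05), and differed from LB1 by 1.59 ± 0.29 and 1.23 ± 0.23 (adjusted p = 0.0133 and 0.016). Both are overlapped by STEAP2-AS1 on the opposite strand, and the 3 genes that follow also share positions with other annotated genes. GRB10, an adaptor of the insulin receptor, fell in LB1 from 60.4 ± 5.56 to 26.4 ± 0.775 CPM (SD, n = 3 and 4), was at 58 ± 8.06 and 53.4 ± 4.11 in LAC (SD, n = 4 each), and differed by 1.08 ± 0.18 (adjusted p = 0.00888). SLC6A9, a glycine transporter, fell in LB1 from 24.2 ± 1.22 to 11.5 ± 1.73 CPM and differed by 1.37 ± 0.25 (adjusted p = 0.0122). SAT1, which acetylates polyamines, rose in LAC by 0.37 and fell in LB1 by 0.51, and differed by 0.87 ± 0.17 (adjusted p = 0.0178). These calls were lost on leaving out single libraries, while the fitted differences changed little. STEAP1 differed by 1.63 without replicate 3 of LB1 at 0 h, and GRB10 by 0.996 without replicate 1 of that group. A fit with fewer libraries also has less power. For STEAP1 the adjusted p was 0.0652 without replicate 3 of LB1 at 0 h, and for GRB10 it was 0.0528 without replicate 1 of that group. For SLC6A9 it was 0.0528 and 0.0678 without replicate 1 or 3 of LB1 at 0 h. For STEAP2 it was 0.0923 and 0.0842 without the same libraries, and 0.0521 and 0.0503 on leaving out replicate 3 of LAC or replicate 2 of LB1 at 96 h. For SAT1 it was 0.0618 and 0.0919 without replicate 1 or 3 of LB1 at 0 h and 0.0554 when replicate 3 of LAC at 96 h was omitted.

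The pseudogene MTND2P28 on chromosome 1, a copy of mitochondrial MT-ND2, was also called lower (-1.90 ± 0.37, adjusted p = 0.0238), beside -1.90 for MT-ND2 itself. Its call was lost in 11 of 25 alternatives, 10 of them with 1 library left out, with an adjusted p of up to 0.131 (without replicate 3 of LB1 at 0 h). Reads of the copy and of MT-ND2 may be shared, and its level was not told apart from that of the mitochondrial gene. MT-RNR2 stood at 1196 ± 765 and 597 ± 626 CPM in LAC and 2091 ± 1723 and 2304 ± 2284 in LB1 (SD, n = 4, 4, 3 and 4), with libraries of LAC at 96 h from 40.7 to 1143, and its response difference was -1.14 ± 1.53 (adjusted p = 0.775).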
